A study of Homo sapiens with 24 samples.

Results

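Long intergenic RNAs and antisense RNAs were followed in 4 human small-cell lung cancer lines, H187, H209, H82 and SHP-77. A member was a gene whose symbol starts with LINC (77 long intergenic RNAs) or ends in -AS and 1 or 2 digits (190 antisense RNAs), and that is listed in the deposited tables of all 4 lines. This gave 267 members of the 11408 genes the 4 tables share. The requirement leaves out RNAs restricted to some lines: 352 LINC symbols and 459 antisense symbols stand in at least 1 of the tables. All 267 members passed the filter on low counts in each fit. Every line was treated with 0.1 nM lurbinectedin or with the DMSO vehicle for 24 h, with 3 libraries per group, 24 in all. By the study's design 2 lines, H187 and H209, form the ISL1-high class, and the other two form the ISL1-low class. The lines are established cultures with no genetic change made for the study, so a class is a pair of lines. The design text calls the triplicates biological, and the p-values measure the spread between those cultures of 1 line.

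Long non-coding RNAs are transcripts made by RNA polymerase II that carry no long open reading frame. An intergenic RNA has its own transcription unit between coding genes, while an antisense RNA is read from the opposite strand of the gene it is named for, either across its body or away from it out of a shared promoter. Some act at the locus where they are made, some in other parts of the nucleus or in the cytoplasm, and for most no function is known. Lurbinectedin is an alkylating drug that binds the minor groove of DNA and blocks elongating RNA polymerase II.

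The libraries were stranded, but whether reads were counted by strand is not given in the sources used here. Where exons of an antisense RNA and its gene share bases, it is therefore not known whether reads of those bases were kept apart. The gene an antisense RNA is named for stood in all 4 tables for 162 of the 190, in some tables for 16 and in none for 12. Of the 162 pairs, 72 overlapped with shared exon bases and 19 overlapped without them. In 67 pairs the RNAs ran away from each other, 65 of them with starts at most 1 kb apart, and in 4 the antisense RNA lay downstream and faced its gene.

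The promoter windows of 4 antisense RNAs from such divergent pairs are shown because each pair gave another combination of responses, described further on. A window runs from 250 bases before to 50 bases after a start site, read 5′ to 3′ along the antisense RNA (RefSeq, GRCh38.p14). Capitals mark the bases from the start of the antisense RNA to that of its gene, which is transcribed the other way. The windows lie at chr5:36876645-36876944, minus strand (NIPBL-AS1), chr2:134918557-134918856, minus strand (CCNT2-AS1), chr11:83071816-83072115, plus strand (RAB30-AS1) and chr12:94459753-94460052, plus strand (CEP83-AS1).
NIPBL-AS1: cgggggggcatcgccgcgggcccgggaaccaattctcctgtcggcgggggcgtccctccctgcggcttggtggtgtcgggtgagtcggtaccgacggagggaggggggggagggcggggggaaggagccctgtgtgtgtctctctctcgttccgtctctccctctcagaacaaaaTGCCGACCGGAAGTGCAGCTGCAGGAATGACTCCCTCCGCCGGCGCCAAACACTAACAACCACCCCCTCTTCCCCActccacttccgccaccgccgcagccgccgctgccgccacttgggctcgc
CCNT2-AS1: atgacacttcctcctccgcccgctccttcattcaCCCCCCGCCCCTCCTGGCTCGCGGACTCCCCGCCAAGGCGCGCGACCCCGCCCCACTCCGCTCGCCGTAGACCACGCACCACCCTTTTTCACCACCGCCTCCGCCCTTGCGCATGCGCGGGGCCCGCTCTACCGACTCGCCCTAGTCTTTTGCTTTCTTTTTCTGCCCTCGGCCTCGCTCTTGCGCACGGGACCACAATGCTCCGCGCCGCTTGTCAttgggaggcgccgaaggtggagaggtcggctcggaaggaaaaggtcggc
RAB30-AS1: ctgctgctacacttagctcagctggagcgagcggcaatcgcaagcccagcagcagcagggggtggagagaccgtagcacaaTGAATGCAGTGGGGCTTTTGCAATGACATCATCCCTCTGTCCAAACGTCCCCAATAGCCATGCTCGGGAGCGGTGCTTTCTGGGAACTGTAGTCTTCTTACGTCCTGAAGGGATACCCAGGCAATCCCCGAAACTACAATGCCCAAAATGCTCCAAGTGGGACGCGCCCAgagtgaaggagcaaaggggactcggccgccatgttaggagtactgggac
CEP83-AS1: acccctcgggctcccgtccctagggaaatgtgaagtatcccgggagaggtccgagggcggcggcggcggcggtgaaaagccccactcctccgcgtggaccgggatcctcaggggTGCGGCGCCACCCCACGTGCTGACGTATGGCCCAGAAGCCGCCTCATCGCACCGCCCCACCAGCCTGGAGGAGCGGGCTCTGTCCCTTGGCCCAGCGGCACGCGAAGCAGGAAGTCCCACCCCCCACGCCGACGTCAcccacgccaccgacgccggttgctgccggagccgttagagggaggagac
In these RefSeq windows the 2 starts of a pair are 75, 216, 169 and 136 bases apart, in the same order. In the deposited tables the starts lie 65 bases apart for NIPBL, 143 for RAB30, 15 for CEP83 and also 216 for CCNT2, since outermost starts differ between annotations.

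3 further windows belong to the members with some of the clearest differences in response. Here capitals mark each CG dinucleotide, to show how unlike the start regions are. They lie at chr14:21206851-21207150, minus strand (LINC00641), chr11:9758043-9758342, plus strand (SBF2-AS1) and chr7:97014016-97014315, minus strand (DLX6-AS1).
LINC00641: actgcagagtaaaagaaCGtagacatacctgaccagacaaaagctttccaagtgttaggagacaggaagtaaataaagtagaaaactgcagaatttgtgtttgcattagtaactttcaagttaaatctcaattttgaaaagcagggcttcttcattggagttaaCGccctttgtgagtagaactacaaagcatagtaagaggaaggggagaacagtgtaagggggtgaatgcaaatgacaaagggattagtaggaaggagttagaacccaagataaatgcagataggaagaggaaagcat
SBF2-AS1: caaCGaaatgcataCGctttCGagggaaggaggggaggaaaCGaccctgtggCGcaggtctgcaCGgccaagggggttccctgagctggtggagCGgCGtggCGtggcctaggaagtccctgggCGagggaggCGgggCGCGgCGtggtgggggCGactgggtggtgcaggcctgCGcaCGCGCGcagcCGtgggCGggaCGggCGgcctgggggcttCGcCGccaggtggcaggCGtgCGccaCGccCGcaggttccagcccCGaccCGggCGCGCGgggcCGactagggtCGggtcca
DLX6-AS1: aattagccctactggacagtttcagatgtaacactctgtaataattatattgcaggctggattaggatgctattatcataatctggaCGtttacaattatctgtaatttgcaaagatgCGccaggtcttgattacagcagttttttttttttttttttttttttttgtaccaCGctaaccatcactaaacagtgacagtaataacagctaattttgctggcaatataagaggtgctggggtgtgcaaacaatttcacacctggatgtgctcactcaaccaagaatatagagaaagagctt
The SBF2-AS1 window holds 36 CG dinucleotides, those of LINC00641 and DLX6-AS1 hold 2 and 3.

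RefSeq windows were found for 219 of the 267 members, 174 by symbol and 45 by an older symbol, and for 214 of them the start lay within 1 kb of that in the deposited tables. The median window held 28 CG dinucleotides for the 161 antisense RNAs and 20.5 for the 58 intergenic RNAs, against 14 over all 35116 windows of the table, which lists some genes with several starts. The letters CCAAT, searched on both strands, were in 86 of the 219 windows (39.3%), and in 34.6% of all windows. By kind they were in 30 of 58 intergenic windows (51.7%) and in 56 of 161 antisense windows (34.8%). TATAAA was in 10 member windows (4.57%) against 11.5% of all. TGACGTCA was in 5 (2.28% against 1.85%) and TGATGNAA in 0 against 3.62% of all. These are matches of letters and carry no test.

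The members were rare RNAs. Levels are in CPM, counts scaled to the library total with TMM factors. Median levels and the most abundant members are given per kb of exon. The bins of CPM and the percents of counts are not scaled by length. Under DMSO the median member stood at 1.56 (H187), 2.09 (H209), 1.10 (H82) and 1.64 (SHP-77) CPM per kb. The median over all 11408 shared genes was 10.6, 10.4, 10.1 and 10.3. Together the 267 RNAs took 0.281%, 0.321%, 0.262% and 0.332% of the counts. Intergenic and antisense RNAs had like medians within a line, 1.84 against 1.45 CPM per kb in H187 and 1.22 against 1.07 in H82. The median member spans 8.09 kb of genome, against 28.2 kb for all genes.

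**Figure D1:**
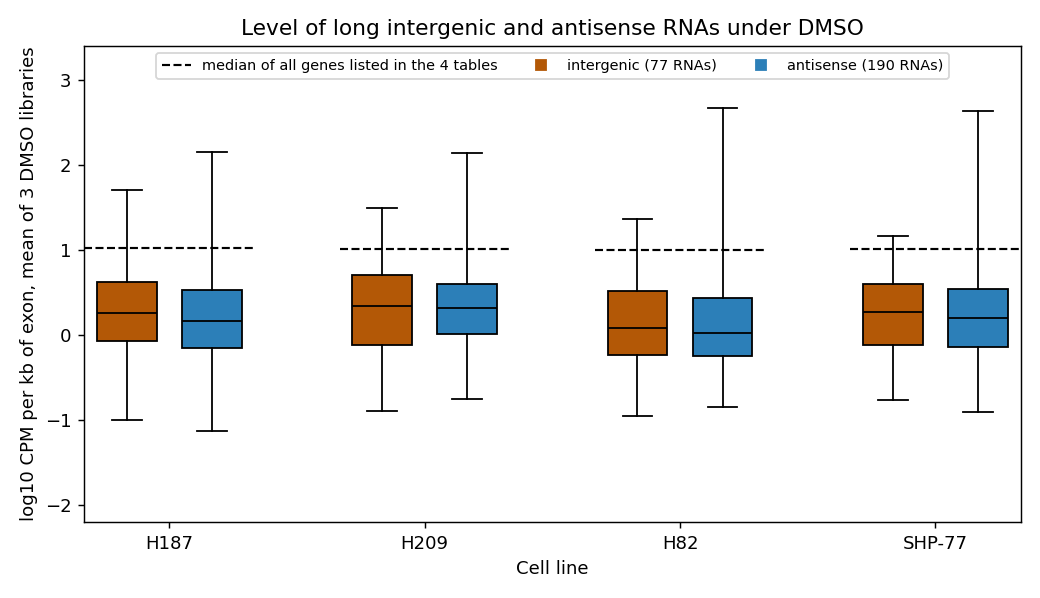
Level of the members in each cell line, as log10 of CPM per kb of exon (mean of 3 DMSO libraries). Boxes give the quartiles and the median, whiskers the lowest and highest RNA, for 77 intergenic and 190 antisense RNAs; the dashed line is the median of all shared genes, which lies above the upper quartile of every box.

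LRRC75A-AS1, a host of small nucleolar RNAs in its introns (chromosome 17, 16438987 to 16470648, plus strand), was the most abundant member per kb in all 4 lines. Its level under DMSO was 366, 337 and 357 CPM in the 3 H187 libraries and 359, 345 and 348 CPM in H209. It was 1145, 1271 and 1076 CPM in H82 and 1087, 1068 and 1064 CPM in SHP-77, so every ISL1-low library lay above every ISL1-high one. Per kb this is 141, 140.0, 464 and 428 CPM. OIP5-AS1, also known as Cyrano, a conserved RNA with a site for miR-7, had 16.1, 30.7, 14.6 and 11.7 CPM per kb in the same order of lines. Among the intergenic RNAs the highest mean over the lines was that of LINC01578, which lies upstream of the chromatin remodeller gene CHD2. Its levels under DMSO were 51.2, 31.5, 12.0 and 14.8 CPM per kb. The other antisense RNAs among the 6 most abundant were FGD5-AS1, NCBP2-AS2, PITPNA-AS1 and NNT-AS1, the last named for the mitochondrial transhydrogenase gene. The other intergenic RNAs were LINC00665, LINC00674, LINC00667, LINC00294 and LINC02001.

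Levels varied between lines. The median member differed 3.26-fold between its highest and its lowest line (all shared genes 2.61-fold). 18 members (6.74%) differed at least 10-fold, against 9.63% of all shared genes. The highest line was H209 for 103 members, H187 for 66, SHP-77 for 59 and H82 for 39. All 6 pairs of lines differed at an adjusted p under 0.05 for 67 members (25.1%), against 49.1% of all shared genes. Single pairs of lines also differed in a smaller share of members than of all genes. H187 differed from H209 in 202 members (75.7%, and 86.0% of all genes). It differed from H82 in 202 (75.7%, and 88.7%) and from SHP-77 in 211 (79.0%, and 88.2%). H209 differed from H82 in 218 (81.6%, and 88.8%) and from SHP-77 in 194 (72.7%, and 87.2%). The last pair, H82 and SHP-77, differed in 210 (78.7%, and 88.9%). LINC00665 (chromosome 19, 36313061 to 36331718, minus strand) was at 48.8, 50.1 and 50.1 CPM in H82, 39.6, 37.7 and 36.0 in H187 and 31.4, 32.0 and 31.5 in H209. In SHP-77 it was at 1.08, 0.721 and 0.730 CPM. The lowest library of the other lines is over 20 times above the highest of SHP-77.

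Under DMSO more members were higher than lower in the ISL1-high lines, but not in every comparison of single lines. The contrast was the mean of the ISL1-high lines minus that of the others. 145 members were higher and 70 lower, 215 in all (80.5%, with 89.0% of all genes called). The share higher was 54.3% (45.2% of all genes) and the share lower 26.2% (43.9%). The median difference was 0.41 on the log2 scale over the members and 0.01 over all genes. Intergenic RNAs (44 higher, 17 lower) and antisense RNAs (101 higher, 53 lower) made up these counts. With 2 lines in a class, a high call can come from 1 line. H209 against H82 had 164 members higher and 54 lower, H187 against H82 131 and 71, and H209 against SHP-77 125 and 69. H187 against SHP-77 was balanced, with 105 higher and 106 lower and a median of 0.01. Lines of the same class were not balanced either. H187 against H209 had 75 members higher and 127 lower, with a median of -0.26. H82 against SHP-77 had 78 higher and 132 lower, with a median of -0.30. Shifts of this kind were therefore not limited to comparisons between the classes. 76 members were higher and 31 lower with 1 sign whichever ISL1-high line was set against whichever ISL1-low line (4 comparisons), 107 in all (40.1%, and 39.0% of all genes). Of all genes 19.6% were higher and 19.5% lower by that rule, and of the members 28.5% and 11.6%.

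**Figure D2:**
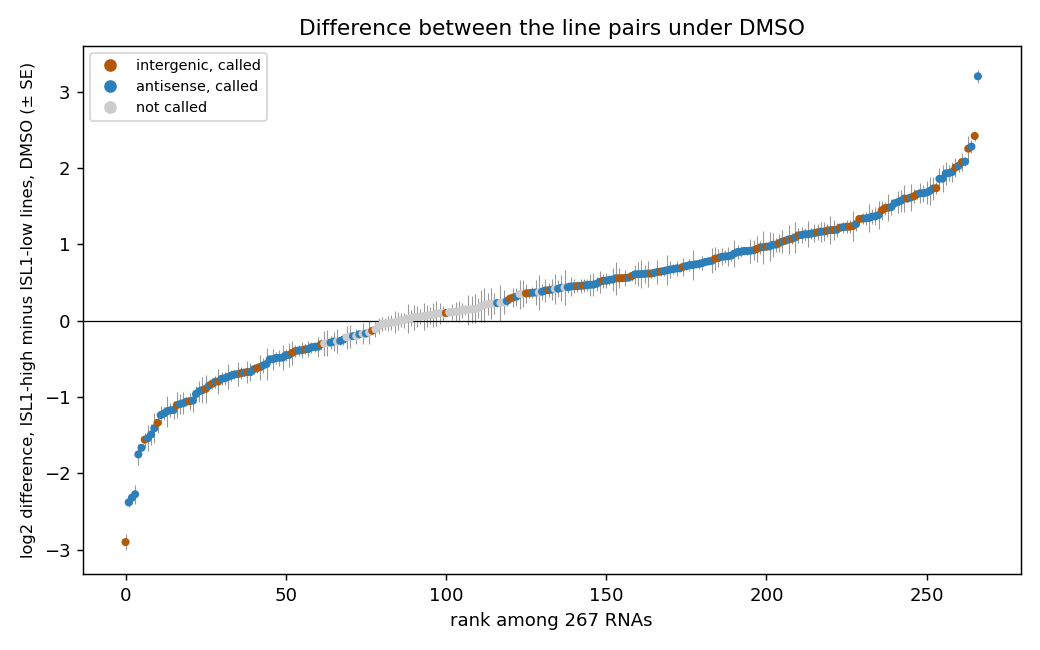
Difference under DMSO between the ISL1-high lines (H187, H209) and the ISL1-low lines (H82, SHP-77) for each of 267 RNAs in order of size, on the log2 scale with its SE; coloured points passed at an adjusted p under 0.05. The points end at DLX6-AS1, highest in the ISL1-high lines, and LINC01296, lowest.

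DLX6-AS1 (chromosome 7, 96968515 to 97014065, minus strand) overlaps DLX6, a homeobox gene of forebrain interneurons, and had the largest difference in favour of the ISL1-high lines. It stood at 15.4, 18.5 and 16.0 CPM in H187 and 14.8, 15.5 and 15.4 in H209. In H82 it was at 2.68, 2.39 and 2.13 CPM and in SHP-77 at 1.08, 1.25 and 1.37. The 6 ISL1-high libraries do not overlap the 6 ISL1-low ones, and the difference was 3.20 ± 0.08 (SE, adjusted p = 2.4e-24). DLX6 itself was at 27.2, 28.7 and 28.7 CPM in H187, 26.8, 25.4 and 26.2 in H209, 10.5, 9.45 and 10.7 in H82 and 6.97, 6.34 and 6.42 in SHP-77, the same order of lines but with a smaller range.

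CDKN2B-AS1, known as ANRIL, is read from the locus of the cell cycle inhibitors p15 and p16. Its difference was 2.28 ± 0.08 (adjusted p = 1.1e-20), with 16.0, 16.7 and 17.7 CPM in H187 and 9.56, 11.5 and 10.3 in H209. The levels were 2.35, 1.91 and 2.82 CPM in H82 and 2.87, 3.04 and 3.56 in SHP-77. TMPO-AS1 (2.08 ± 0.06), LINC00526 (2.25 ± 0.16) and LINC00342 (2.08 ± 0.12) were also higher in every ISL1-high library than in every ISL1-low one. TMPO-AS1 starts inside TMPO, the gene of a protein of the nuclear lamina.

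BOLA3-AS1 runs away from BOLA3, a gene of mitochondrial iron-sulfur cluster assembly, and was lower in the ISL1-high lines. Its levels under DMSO were 2.12, 1.98 and 1.65 CPM in H187, 12.2, 11.5 and 9.85 in H209, 31.3, 32.1 and 32.7 in H82 and 18.8, 18.3 and 17.7 in SHP-77. The difference was -2.38 ± 0.06 (adjusted p = 5.4e-24). H187 and H209 stood apart from each other too. VPS9D1-AS1 was at 0.556, 1.13 and 0.964 CPM in H187 but at 16.6, 18.1 and 16.2 in H209, which overlaps the 16.5, 16.8 and 18.3 CPM of H82. SHP-77 was at 22.2, 22.0 and 20.8 CPM. Its class difference was -2.32 ± 0.08, while H209 and H82 did not differ at the threshold (adjusted p = 0.85). DDN-AS1 (-2.27 ± 0.13), PDCD4-AS1 (-1.75 ± 0.14) and LINC01296 (-2.90 ± 0.11) were lower as well. The tables give LINC01296 several loci, so its reads may come from more than 1 copy. The exons of DDN-AS1 overlap those of DDN, KMT2D and PRKAG1 on the other strand.

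Nearly all members that changed under lurbinectedin did so in the ISL1-high lines. In H187, 19 members passed at an adjusted p under 0.05 (6 higher, 13 lower), 7.12% of the members, with 24.9% of all genes called. Of all genes there, 12.2% were higher and 12.7% lower. In H209, 68 passed (38 higher, 30 lower), 25.5%, with 45.2% of all genes called, 22.7% higher and 22.5% lower. In H82 1 member passed, LINC00641, and it fell (0.375%, with 2.92% of all genes called, 1.55% higher and 1.38% lower). In SHP-77 0 passed, with 5.19% of all genes called, 1.98% higher and 3.21% lower. The 3 treated and the 3 DMSO libraries did not overlap for 66 members in H187 (24.7%, and 38.7% of all genes) and for 77 in H209 (28.8%, and 52.2%). In H82 this held for 42 members (15.7%, and 21.7% of all genes) and in SHP-77 for 34 (12.7%, and 22.1%). Without adjustment a p under 0.05 was reached by 42 (H187), 83 (H209), 17 (H82) and 18 (SHP-77) members, which is 15.7%, 31.1%, 6.37% and 6.74% of them. The shares over all genes were 36.4%, 51.2%, 17.4% and 17.5%. DESeq2 called 1 member in H82 and 0 in SHP-77, and gave no adjusted p for 110 and 123 of them. 11 members passed in both H187 and H209, all in the same direction (3 higher, 8 lower). These are 4.12% of the members, while 19.4% of all shared genes passed in both, 97.2% of those in the same direction, so the agreement in direction is near that of all genes.

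Members had lower counts than most genes, and they were also called less often than genes at like levels in most bins of CPM. The median SE of a member's log2 fold change was 0.16 in H187 and 0.13 in H209, against 0.06 in both over all genes. Among RNAs at 10 CPM or more, the share called in H209 was 43.2% of 74 members and 55.5% of 9731 genes. In H187 it was 17.6% of 51 members and 30.1% of 9539 genes. From 5 to 10 CPM the shares were 26.7% of members and 36.9% of genes in H209, and 6.38% and 21.3% in H187. From 2 to 5 CPM they were 19.5% and 26.0% in H209, and 2.67% and 15.8% in H187. From 1 to 2 CPM they were 18.8% and 17.1% in H209, the 1 bin of these lines where members were not below all genes, and 6.90% and 8.74% in H187. Under 1 CPM they were 0% of 23 members and 12.6% in H209, and 2.78% and 7.66% in H187. By kind the picture was mixed. In H209 intergenic RNAs were above all genes at 10 CPM or more (61.5%), from 5 to 10 (38.5%) and from 2 to 5 (28.6%). From 1 to 2 and under 1 CPM they were below (11.1% and 0%). Over these bins in the same order, antisense RNAs were at 33.3%, 21.9%, 16.1%, 20.5% and 0%. The bin of 10 CPM or more has no upper limit, so levels within it can differ. The part of depth in the lower shares was not tested. 1 member reached a 2-fold change in H187 (LINC00648) and 1 in H209 (DOCK9-AS2).

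**Figure D3:**
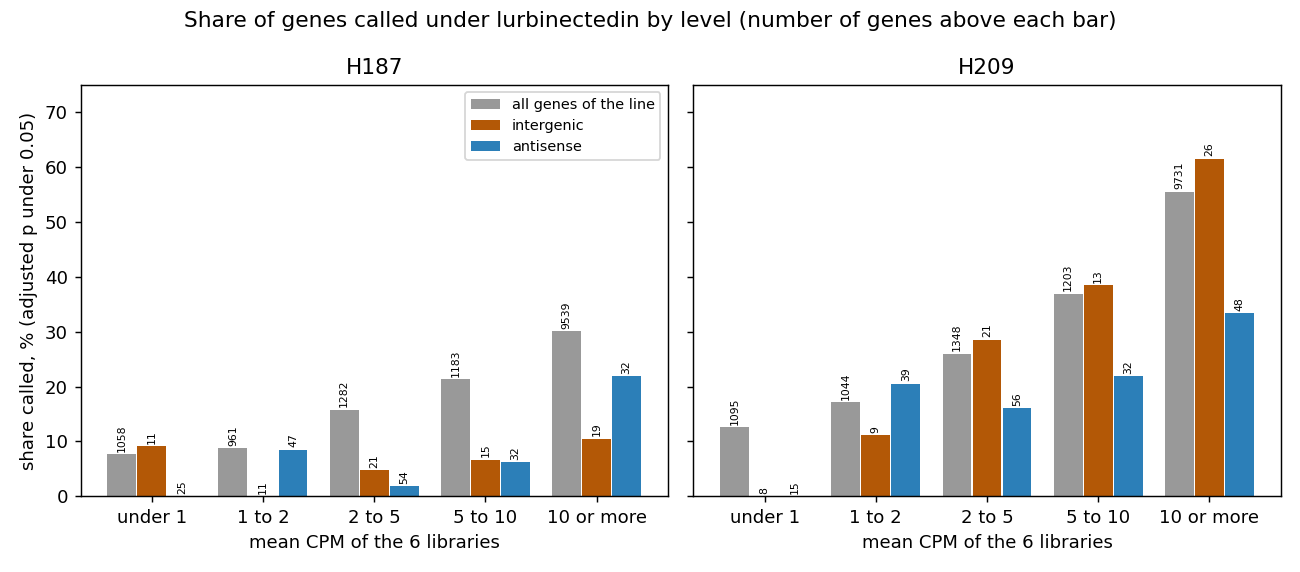
Share of genes called under lurbinectedin (%, adjusted p under 0.05) in H187 and H209, by mean CPM of the 6 libraries of the line, for all genes, intergenic RNAs and antisense RNAs; the number over each bar is the number of genes in it. Shares rise with level in all genes, from 12.6% under 1 CPM to 55.5% at 10 CPM or more in H209.

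Intergenic and antisense RNAs were compared by counts. In H209, 28 of 77 intergenic RNAs passed (11 higher, 17 lower) and 40 of 190 antisense RNAs (27 higher, 13 lower). This is 36.4% against 21.1%, with 45.2% of all genes called. The median SE there was 0.119 for intergenic and 0.134 for antisense RNAs. In H187, 5 of 77 intergenic RNAs passed, 0 of them higher, and 14 of 190 antisense RNAs (6 higher, 8 lower). These shares were alike, 6.49% and 7.37%, with 24.9% of all genes called. The median log2 fold change of the intergenic RNAs was -0.09 for H187, -0.03 for H209, 0.01 for H82 and -0.03 for SHP-77. That of the antisense RNAs was -0.03, -0.01, 0.03 and -0.02, and that of all genes 0.00 in each line. These medians are a description, and the difference between the kinds was not tested. The medians over the treated libraries of H187 ran from -0.14 to -0.05 for the intergenic RNAs and from -0.08 to 0.02 for the antisense RNAs, which overlap. In H209 they did not overlap, with -0.06 to -0.03 for the intergenic RNAs and 0.00585 to 0.00696 for the antisense RNAs, whose median in the fit was below 0. In H82 (-0.04 to 0.04 and -0.02 to 0.07) and SHP-77 (-0.03 to 0.00218 and -0.04 to -0.01) they overlapped.

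LINC00641 (chromosome 14, 21200079 to 21206900, minus strand) was the member that passed in 3 lines. It was at 61.9, 65.7 and 66.8 CPM under DMSO and 48.6, 54.6 and 49.99 under lurbinectedin in H187. In H209 the values were 24.9, 29.9 and 26.5 and 16.3, 17.2 and 18.7 CPM, and in H82 28.4, 28.6 and 28.0 and 24.9, 23.5 and 23.8. In these 3 lines each treated library was below each DMSO library. The log2 fold changes were -0.34 ± 0.05 (SE, adjusted p = 2.5e-05), -0.64 ± 0.06 (adjusted p = 2.8e-11) and -0.23 ± 0.05 (adjusted p = 0.024). In SHP-77 the groups overlapped, with 13.7, 15.4 and 14.6 against 17.2, 13.8 and 15.1 CPM (0.08 ± 0.07, adjusted p = 0.65). The H82 call was lost without 5 of its 6 libraries in turn and with a correction for GC content.

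LINC00648 fell in both ISL1-high lines from unlike levels. In H187 it went from 1.495, 0.893 and 1.24 to 0.637, 0.555 and 0.505 CPM (-1.10 ± 0.28, adjusted p = 0.0056). In H209 it went from 13.3, 14.9 and 16.4 to 10.2, 11.3 and 10.5 CPM (-0.48 ± 0.08, adjusted p = 1.8e-06). In H82 it was at 11.4, 11.0 and 10.3 CPM under DMSO and in SHP-77 at 16.4, 13.5 and 13.7, and its effects there were -0.09 ± 0.08 and -0.16 ± 0.09, neither past the threshold. LINC01399 and LINC01315 also fell in both ISL1-high lines. LINC01399 changed by -0.48 ± 0.13 and -0.28 ± 0.08, and LINC01315 by -0.34 ± 0.10 and -0.53 ± 0.16. The calls of LINC01315 were lost without DMSO or lurbinectedin replicate 3 in H187 and without lurbinectedin replicate 2 in H209.

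DLX6-AS1 fell where it was high. In H187 it went from 15.4, 18.5 and 16.0 to 12.7, 11.1 and 13.4 CPM and in H209 from 14.8, 15.5 and 15.4 to 12.1, 11.2 and 10.3, with no overlap in either line. The log2 fold changes were -0.42 ± 0.09 (adjusted p = 0.0012) and -0.43 ± 0.07 (adjusted p = 4.7e-06). DLX6 did not pass in either line (0.04 ± 0.05 and -0.11 ± 0.06). In H82 and SHP-77 the effects of DLX6-AS1 were 0.26 ± 0.15 and 0.10 ± 0.22, not past the threshold.

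In H209 the largest rise was that of DOCK9-AS2 (chromosome 13, 99086723 to 99088625, plus strand), from 1.01, 1.08 and 0.573 to 2.12, 2.35 and 1.91 CPM (1.25 ± 0.23, adjusted p = 1.3e-05). It was a rare RNA, but the 3 treated libraries stood clear of the DMSO ones. SLC25A21-AS1 rose from 7.12, 5.49 and 6.09 to 10.1, 10.2 and 10.5 CPM (0.73 ± 0.10, adjusted p = 1.6e-08). LINC01012, PTOV1-AS2 and CEP83-AS1 rose by 0.71 ± 0.18, 0.66 ± 0.14 and 0.62 ± 0.19. The CEP83-AS1 call was lost without lurbinectedin replicate 1. LINC01578 was the most abundant intergenic RNA that rose, from 63.5, 64.7 and 64.1 to 82.4, 79.2 and 75.9 CPM (0.31 ± 0.04, adjusted p = 1.6e-09), and its effect in H187 was -0.03 ± 0.05 (adjusted p = 0.72). NNT-AS1 rose by 0.21 ± 0.04 in H209 and LRRC75A-AS1 by 0.10 ± 0.03. The LRRC75A-AS1 call was lost when all 24 libraries were fitted together.

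Of the falls in H209 with no overlap between treated and DMSO libraries, the 5 largest were those of CCNT2-AS1, TMEM161B-AS1, LINC00641, PPP3CB-AS1 and LINC01315. TMEM161B-AS1 went from 1.35, 1.48 and 1.33 to 0.950, 0.540 and 1.02 CPM (-0.69 ± 0.25). Its call was lost with DESeq2, without DMSO replicate 2 and without lurbinectedin replicate 2. PPP3CB-AS1, which overlaps the gene of a calcineurin catalytic subunit, went from 4.57, 4.78 and 4.59 to 2.51, 3.67 and 3.15 CPM (-0.59 ± 0.14, adjusted p = 4.6e-04). PPP3CB fell as well in H209 (-0.19 ± 0.04). In H187 PPP3CB fell (-0.19 ± 0.05) while its antisense RNA, between 0.862 and 1.39 CPM in the 6 libraries, gave overlapping groups.

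Of the 14 antisense RNAs called in H187, 7 had a mean of 10 CPM or more, but the largest changes were of rarer RNAs. HMGN3-AS1 rose from 1.01, 1.36 and 1.205 to 2.25, 1.76 and 1.67 CPM (0.67 ± 0.22, adjusted p = 0.03) and FLVCR1-AS1 from 1.22, 0.971 and 1.205 to 1.499, 1.63 and 2.12 (0.63 ± 0.22, adjusted p = 0.043). EP300-AS1, downstream of the acetyltransferase gene EP300 and facing it, rose by 0.52 ± 0.15 and in H209 by 0.36 ± 0.13. RBM15-AS1, which starts beside the gene of an RNA methylation factor, fell from 1.43, 1.48 and 1.86 to 1.09, 0.956 and 0.947 CPM (-0.67 ± 0.23, adjusted p = 0.033). DESeq2 and the fit with replicate number as a block did not call HMGN3-AS1, FLVCR1-AS1 or RBM15-AS1. HMGN3-AS1 also lost the call without 3 of the 6 libraries in turn, and FLVCR1-AS1 and RBM15-AS1 without 5 of them. EP300-AS1 lost its H187 call without DMSO replicate 1 or lurbinectedin replicate 3. It lost its H209 call with DESeq2 and without DMSO replicate 2, DMSO replicate 3 or lurbinectedin replicate 3. ZSCAN16-AS1 fell in both ISL1-high lines (-0.35 ± 0.11 and -0.41 ± 0.09), and its H187 call was lost without DMSO replicate 2 or lurbinectedin replicate 1.

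The response differed between the 2 classes for 33 members, 12 higher and 21 lower in the ISL1-high lines (12.4%, with 31.6% of all genes called, 15.7% higher and 15.9% lower). The contrast, fitted on all 24 libraries, set the mean effect of the ISL1-high lines against the mean effect of the ISL1-low lines. For LINC00641 the difference was -0.42 ± 0.07 (SE, adjusted p = 6.9e-06), for DLX6-AS1 -0.60 ± 0.14 (8.5e-04), for LINC00648 -0.67 ± 0.16 (0.0012) and for LINC01399 -0.41 ± 0.12 (0.0075). For CCNT2-AS1 it was -0.53 ± 0.17 (0.016). DOCK9-AS2, the largest rise in H209, did not pass here (0.71 ± 0.30, adjusted p = 0.064).

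THAP9-AS1 and SBF2-AS1 had the smallest p in the other direction. THAP9-AS1 starts inside THAP9, a gene derived from a transposase, and shares exon bases with SEC31A on its own strand, so part of its reads may belong to that gene. It rose in H187 from 57.1, 55.6 and 51.5 to 61.5, 59.2 and 66.8 CPM (0.20 ± 0.05) and in H209 from 16.9, 17.2 and 14.2 to 24.5, 20.3 and 19.7 (0.43 ± 0.07). In H82 it was at 7.09, 7.82 and 6.08 CPM and then 5.91, 5.76 and 6.00 (-0.24 ± 0.11), and in SHP-77 its effect was -0.11 ± 0.05, neither past the threshold. The difference in response was 0.49 ± 0.08 (adjusted p = 1.7e-05). The H187 call of THAP9-AS1 was lost without lurbinectedin replicate 3.

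**Figure D4:**
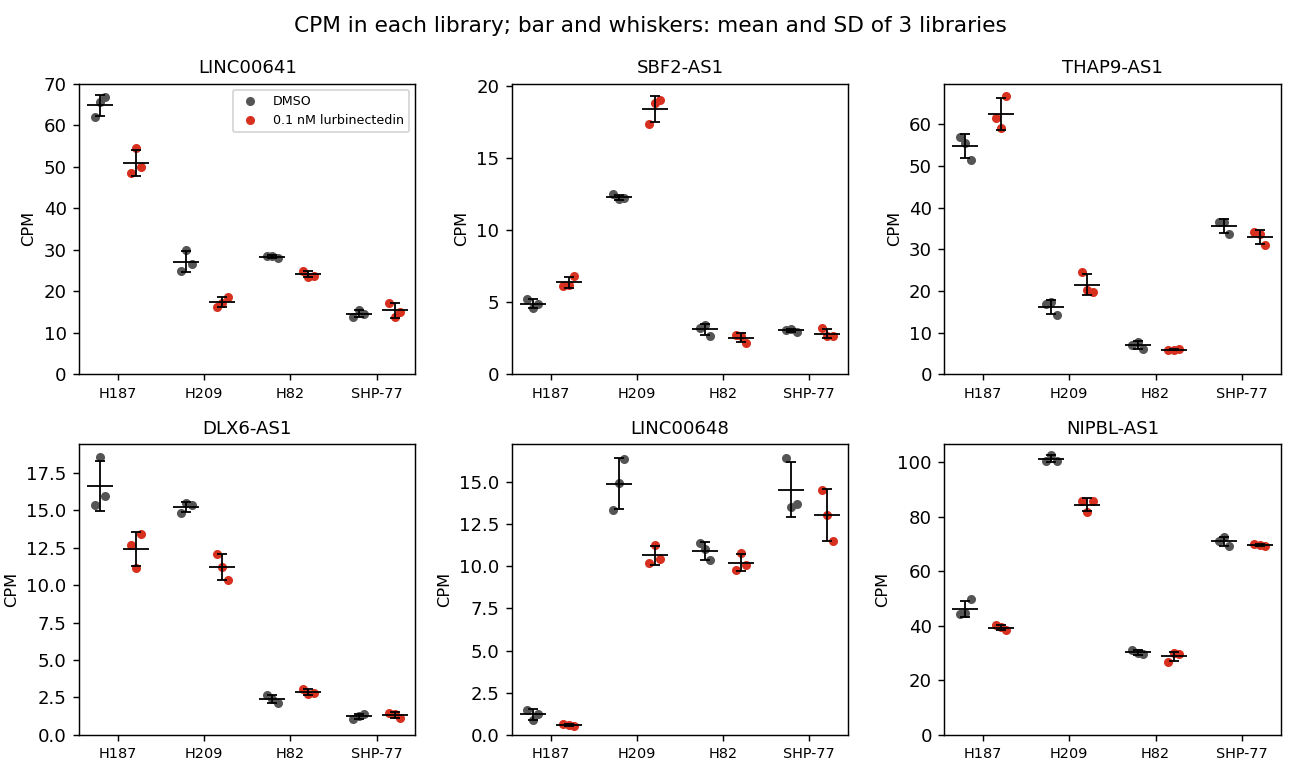
CPM of the 6 members with the smallest p for a difference in response, in each of the 24 libraries; points are libraries, the bar and whiskers are the mean and SD of 3. LINC00641, DLX6-AS1, LINC00648 and NIPBL-AS1 lie lower and SBF2-AS1 and THAP9-AS1 higher under lurbinectedin in H187 and H209.

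Antisense RNAs were then set beside the genes they are named for, in the 162 pairs. An antisense RNA was the rarer of the pair in most cases: per kb, its median level was 10.6% (H187), 15.9% (H209), 10.3% (H82) and 13.9% (SHP-77) of its gene's. It was above its gene in 16, 18, 18 and 19 pairs. In H187, 12 of the 162 antisense RNAs (7.41%) passed under lurbinectedin and 39 of the genes (24.1%), with 24.9% of all genes called. In H209 these numbers were 34 (21.0%) and 80 (49.4%), with 45.2% of all genes called. The genes of the pairs were thus near the share of all genes. Both passed in 2 pairs in H187, 1 in the same and 1 in the opposite direction. In H209 both passed in 17 pairs, 9 in the same direction (5 higher, 4 lower) and 8 in opposite directions. In 17 pairs only the antisense RNA passed, and in 63 only the gene. With these numbers called, some pairs would have both past the threshold without any link between them. Whether 17 is more than that was not tested. In H82 0 antisense RNAs and 0 genes of the pairs passed by edgeR, and in SHP-77 0 antisense RNAs and 9 genes. Spearman's rho between the effects of antisense RNA and gene was 0.06 (H187), -0.00496 (H209), 0.21 (H82) and 0.23 (SHP-77) over the 162 pairs, which share their libraries. For the class difference under DMSO rho was 0.38. In that contrast 131 of the 162 antisense RNAs and 146 of the genes passed, with 89.0% of all genes called. Both members of a pair were higher in 53 pairs and lower in 27. They went opposite ways in 39 (25 with the antisense RNA higher, 14 with the gene higher).

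**Figure D5:**
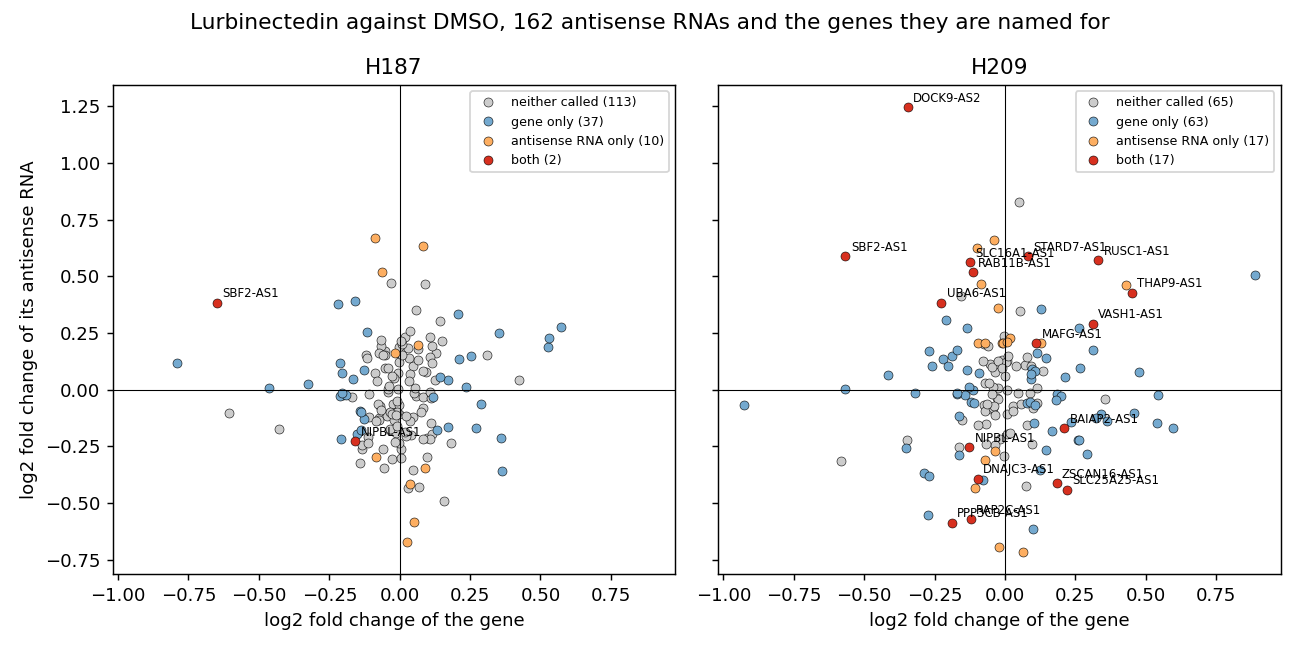
Log2 fold change of each antisense RNA (vertical axis) against that of the gene it is named for (horizontal axis) under lurbinectedin in H187 and H209; colours show whether antisense RNA, gene, both or neither passed at an adjusted p under 0.05, and pairs in which both passed are named. Those pairs are 2 in H187 and 17 in H209, spread over the quadrants.

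SBF2-AS1 and SBF2 went opposite ways in both ISL1-high lines. SBF2 is a long gene for an inactive phosphatase of endosomes, and SBF2-AS1 (chromosome 11, 9758293 to 9811319, plus strand) starts beyond the far end of SBF2 and runs back into it on the other strand. SBF2 spans 515541 bases, of which SBF2-AS1 overlaps the last 32653, and 288 bases lie in exons of both. In H187 SBF2-AS1 rose from 5.22, 4.58 and 4.89 to 6.11, 6.17 and 6.82 CPM (0.38 ± 0.11, adjusted p = 0.018), while SBF2 fell from 18.3, 17.9 and 16.0 to 11.4, 10.6 and 11.2 (-0.65 ± 0.08, adjusted p = 2.6e-06). In H209 SBF2-AS1 rose from 12.5, 12.2 and 12.2 to 17.4, 18.8 and 19.1 CPM (0.59 ± 0.07) and SBF2 fell from 57.4, 57.0 and 55.7 to 36.4, 38.7 and 39.2 (-0.57 ± 0.04). As a percent of SBF2 counts, SBF2-AS1 made 28.6, 25.7 and 30.5% in the DMSO libraries and 53.8, 58.1 and 61.0% in the treated ones in H187. In H209 it made 21.8, 21.3 and 21.9% in the DMSO libraries and 47.6, 48.6 and 48.6% in the treated ones. In H82 the share was 7.35, 8.76 and 6.09% in the DMSO libraries and 7.56, 7.11 and 5.92% in the treated ones, overlapping values, and in SHP-77 SBF2-AS1 did not pass (-0.10 ± 0.14) while SBF2 fell (-0.20 ± 0.06). The difference in response of SBF2-AS1 between the classes was 0.68 ± 0.11 (adjusted p = 1.2e-05). The H187 call of SBF2-AS1 was lost without DMSO replicate 2 or lurbinectedin replicate 3.

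At TTC28, another long gene, the gene fell and its antisense RNA did not pass. TTC28 went from 46.7, 50.6 and 51.5 to 28.6, 29.05 and 28.0 CPM in H187 (-0.79 ± 0.05) and from 73.6, 72.9 and 77.03 to 37.5, 38.5 and 40.8 in H209 (-0.93 ± 0.04). TTC28-AS1, which also starts beyond the far end of its gene and runs into it, was at 8.94, 9.05 and 9.67 and 10.3, 9.81 and 9.79 CPM in H187 and at 14.1, 15.9 and 17.6 and 15.4, 14.4 and 15.4 in H209 (0.12 ± 0.09 and -0.07 ± 0.07). In SHP-77 TTC28 fell too (-0.28 ± 0.04), and TTC28-AS1 was at 0.04 ± 0.09. OIP5-AS1 was not called either, with 0.03 ± 0.04 in H187 and 0.06 ± 0.03 in H209, where OIP5, a gene of centromere assembly, fell (-0.33 ± 0.09 and -0.42 ± 0.07).

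Over the 25 pairs whose gene spans 100 kb or more, 12 genes fell and 0 rose in each of H187 and H209. Of all genes of that span, 36.2% fell and 3.16% rose in H187, and 48.2% fell and 9.29% rose in H209, so the 12 of 25 in H209 are near the share of all long genes. Of their antisense RNAs, 1 fell and 1 rose in H187 and 2 fell and 4 rose in H209. The median effect in H187 was -0.14 for these genes and -0.03 for their antisense RNAs, and in H209 -0.10 and -0.01. These antisense RNAs are short, with a median span of 4.09 kb against 157 kb for the genes. In the 79 pairs with a gene under 30 kb the medians were 0.02 and -0.03 in H187 and 0.00 for both in H209. Spearman's rho of effect and span was -0.23 over 264 members in H187 and -0.24 in H209, and -0.25 over all genes in both lines. In H82 it was -0.10 over members and -0.32 over all genes, and in SHP-77 -0.10 and -0.27, a description over genes that share their libraries.

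The 4 divergent pairs whose windows are printed above differed from each other. NIPBL codes for the loader of cohesin on DNA, and here both RNAs fell. NIPBL-AS1 went from 44.3, 44.8 and 49.7 to 40.2, 39.5 and 38.5 CPM in H187 (-0.23 ± 0.05, adjusted p = 0.0021) and from 101, 103 and 100.5 to 85.9, 81.7 and 85.8 in H209 (-0.25 ± 0.03, adjusted p = 2.1e-08). NIPBL changed by -0.16 ± 0.04 and -0.13 ± 0.03. This was the 1 pair with both RNAs past the threshold in the same direction in both ISL1-high lines. As a percent of NIPBL counts, NIPBL-AS1 made 44.1, 42.8 and 41.3% in the DMSO libraries and 39.6, 37.1 and 40.6% in the treated ones in H209, and overlapping shares in H187.

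CCNT2 codes for a cyclin of the kinase that releases paused RNA polymerase II. CCNT2-AS1 fell from 2.47, 2.29 and 2.00 to 1.31, 1.48 and 1.67 CPM in H187 (-0.58 ± 0.19, adjusted p = 0.032) and from 1.87, 1.97 and 1.93 to 0.950, 1.04 and 1.498 in H209 (-0.72 ± 0.21, adjusted p = 0.0054). CCNT2 did not pass in either line (0.05 ± 0.04 and 0.07 ± 0.04). The H187 call of CCNT2-AS1 was lost with DESeq2, with the replicate block and without 4 of the 6 libraries in turn, and the H209 call without lurbinectedin replicate 1.

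RAB30, the gene of a small GTPase of the Golgi, showed the reverse in H209. It rose from 10.5, 9.87 and 10.7 to 15.9, 15.2 and 15.4 CPM (0.60 ± 0.07, adjusted p = 5.1e-09), while RAB30-AS1 was at 7.84, 8.33 and 8.53 and 6.65, 7.18 and 8.06 CPM (-0.17 ± 0.10, adjusted p = 0.15). In H187 RAB30 stood at 85.8, 79.0 and 87.4 CPM under DMSO and its effect was -0.02 ± 0.05. At CEP83, a gene of the centriole, the antisense RNA rose in H209 and CEP83 did not pass (-0.10 ± 0.08, adjusted p = 0.33). DOCK9-AS2 starts 317 bases from DOCK9, which codes for an activator of the GTPase Cdc42. Beside the rise of DOCK9-AS2 in H209, DOCK9 fell from 37.4, 36.7 and 37.4 to 27.7, 30.03 and 29.7 CPM (-0.34 ± 0.05, adjusted p = 7.7e-08).

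THAP9 and THAP9-AS1 rose together in H209, THAP9 from 8.70, 8.24 and 8.85 to 10.5, 13.2 and 11.5 CPM (0.45 ± 0.09, adjusted p = 3.0e-05). Their exons overlap. In H187 THAP9-AS1 rose alone (THAP9 0.06 ± 0.06, adjusted p = 0.51). At HMGN3, a gene of a nucleosome-binding protein, HMGN3-AS1 rose in H187 while HMGN3 did not pass (-0.09 ± 0.05), and in H209 HMGN3 fell (-0.27 ± 0.04) while HMGN3-AS1 did not pass (0.17 ± 0.17).

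Among members with known roles, CDKN2B-AS1 did not pass in any line, with effects of -0.03 ± 0.07, 0.15 ± 0.08, 0.18 ± 0.17 and -0.28 ± 0.15 in H187, H209, H82 and SHP-77. CDKN2B, the gene of p15, fell in H187 (-0.20 ± 0.04) and H209 (-0.19 ± 0.07). LINC-PINT, an RNA induced by p53, was not called either (-0.20 ± 0.10, -0.24 ± 0.13, -0.22 ± 0.13 and -0.03 ± 0.11). EPB41L4A-AS1, a host of a small nucleolar RNA, rose in H209 from 3.00, 3.70 and 3.15 to 4.38, 4.59 and 4.49 CPM (0.45 ± 0.13, adjusted p = 0.0047). MCM3AP-AS1, named for an mRNA export gene, fell in H209 (-0.31 ± 0.10) and lost the call without lurbinectedin replicate 1.

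Long non-coding RNAs with names of other forms were counted the same way. Of 34 on a list, 26 were measured in H187, where 2 rose (SNHG1 and ZFAS1) and 7 fell, with a median of -0.09 (12.2% of all genes rose and 12.7% fell). In H209, 8 of 26 rose and 8 fell (median 0.00), where 22.7% of all genes rose and 22.5% fell. MALAT1, an abundant nuclear RNA, was called higher there by 0.09 ± 0.03 (adjusted p = 0.027), but its groups overlapped. It was at 3557, 4093 and 3783 CPM under DMSO and 4379, 3698 and 3994 under lurbinectedin. NORAD, which binds Pumilio proteins, fell in H209 (-0.25 ± 0.03). In H82 TERC, the RNA of telomerase, rose (1 of 20 measured, with 1.55% of all genes higher). In SHP-77 MALAT1 rose (1 of 25, with 1.98% of all genes higher). Of 32 antisense RNAs at genes of developmental transcription factors, members or not, 11 were measured in H187. There 2 were lower (NKX2-1-AS1 and DLX6-AS1), with 12.7% of all genes lower. In H209 15 were measured, 1 of them higher (LBX2-AS1) and 3 lower (HOXD-AS2, NKX2-1-AS1 and DLX6-AS1). Of all genes there, 22.7% were higher and 22.5% lower, so the count of falls is near that share. In H82 and SHP-77, 0 of 9 and 0 of 14 passed, with 2.92% and 5.19% of all genes called.

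Total counts per library were between 24226553 and 36415190. ISL1 was at 249.5 ± 8.66 CPM in H187 and 204 ± 6.57 in H209 under DMSO, and at 3.89 ± 0.346 in H82 and 0.912 ± 0.0293 in SHP-77 (SD, n = 3). Of 11 neuroendocrine markers the tables of H187 and H209 list 10, that of H82 lists 8 and that of SHP-77 lists 9. CHGA stands in none of them. Their summed level was 2741 to 3339 CPM in the DMSO libraries of the ISL1-high lines, between 1250.3 and 1277 for H82 and between 4615 and 4879 for SHP-77. Most markers of other cells are not listed. Each line's table holds 0 or 1 of 5 blood cell markers, 1 or 2 of 5 fibroblast markers and 0 to 2 of 3 endothelial markers. Over the listed ones, the summed level was at most 1.05 CPM (blood cells), 9.15 CPM (fibroblast) and 8.89 CPM (endothelium) in any library.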

How the data were processed

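RNA of 4 cell lines was measured in 24 libraries, 8 groups of 3. Per the labels' protocols, libraries were made from total RNA after depletion of ribosomal RNA, with a stranded kit. The deposited tables hold raw read counts per gene, and the submitters' processing notes name STAR 2.7.10a, featureCounts, Subread 2.0.3, edgeR 4.2.0 and hg38. The gene annotation, the strand setting and any filter on low counts are not given in the sources used here. The authors also deposited log2 CPM and log2 fold changes with p-values and FDR, of which the FDR was used as an alternative.

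Counts were fitted with edgeR 4.0.16 in R 4.3.3 (quasi-likelihood test, TMM scaling, filterByExpr with a minimum count of 10 and total of 15), within each line for lurbinectedin, over 24 libraries for the difference in response and over the 12 DMSO libraries for the class difference. P-values were adjusted by Benjamini-Hochberg over all genes tested, with a threshold of 0.05. The SE of a log2 fold change is its size divided by the square root of F. CPM are counts over table totals scaled by TMM factors from the 11408 shared genes. The fits were also run on simulated counts with known changes, as a check of the code only. Members and lists were chosen with earlier results of these data known.

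Named members were the 5 largest changes each way per line without overlap of libraries and not below a mean log2 CPM of 0, those called in 3 lines, the 6 most abundant per kb of each kind, the 5 largest class differences each way with 1 sign in all 4 line pairs, the 6 smallest p for the difference in response, up to 6 pairs with the largest gap and up to 6 that moved together in 2 lines (1 did), and a panel with known roles. LINC00648 in H187, DLX6, and the shares and counts by pair and span were added for context after their values were seen. Alternatives were DESeq2 1.42.0, other size factors, other filters, a replicate block, 1 fit over all libraries, each library left out and, chosen after seeing the data, a GC correction.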

Additional observations from a re-analysis of the deposited data

Results flagged for a closer look

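6 members stood out because their response to lurbinectedin differed between the ISL1-high and the ISL1-low lines by the test of the difference itself (edgeR, ISL1-high effect minus ISL1-low effect). The difference was -0.42 for LINC00641, 0.68 for SBF2-AS1, 0.49 for THAP9-AS1, -0.20 for NIPBL-AS1, -0.60 for DLX6-AS1 and -0.67 for LINC00648 on the log2 scale. These are the 6 smallest p-values among the 33 members called, and all 6 kept the call under each alternative run.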

How the results depend on the processing

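Of 103 results for named members, 101 were called. Of these, 74 kept the call under every alternative run and 27 lost it under at least 1. The other two, RAB30-AS1 in H209 and TTC28-AS1 in H187, were not called under any, and 0 of the 103 changed direction. In H187 the 19 members called became 29 with all 24 libraries in 1 fit, and 11 to 22 when 1 library was left out, the fewest without lurbinectedin replicate 3. In H209 the 68 became 44 with DESeq2 and 49 to 61 with 1 library left out. In H82 the single call became 3 with all 24 libraries, 5 by the authors' deposited FDR, 0 with the GC correction and 0 to 5 with 1 library left out. In SHP-77, 1 member was called by the authors' deposited FDR. The class difference fell from 215 members to 107 when 1 sign was required in all 4 line pairs. Pairs called in the same direction in H187 were 1 to 2 with 1 library left out (2 without DMSO or lurbinectedin replicate 3). The median effect with 1 library left out was -0.0649 to -0.0194 for intergenic and -0.00803 to 0.0133 for antisense RNAs in H209, and -0.0503 to -0.0121 and -0.0367 to -0.00405 in SHP-77. The H82 count of 5 is that without DMSO replicate 3. In H209 the antisense median was above 0 without lurbinectedin replicate 2 or 3. The cause of these shifts was not tested.

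Replicate numbers did not pair the libraries: correlations of same-numbered deviations ran from -0.197 to 0.115, and 3 of 24 libraries correlated best with their own number. With the replicate block, the line fits called 15 (H187), 67 (H209), 4 (H82) and 0 (SHP-77) members, with 29 for the difference in response and 216 for the class difference. Pairs called in the same direction under the block were 1, 9, 1 and 0. The median SE of a member's effect was 0.13 to 0.16, so for a member of that precision small effects may have gone undetected.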
